A study of Rattus norvegicus with 18 samples.

Results

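The glycolytic enzymes from glucose-6-phosphate isomerase to lactate dehydrogenase A are described here by 10 genes, Gpi, Aldoa, Aldoc, Tpi1, Gapdh, Pgk1, Pgam1, Eno1, Eno2 and Ldha. They were chosen as the probe sets whose single gene symbol in the platform annotation is a member. All 10 genes were found, among 14324 genes with a symbol, on 28 of 27363 probe sets. Gapdh had 16 probe sets, Eno1 had 3, Ldha had 2 and the other members had 1 each. Another probe set, which names Tpi1 together with a further gene, was not used.

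The arrays came from 9L, a transplantable rat gliosarcoma line that serves as a glioma model. Tumours were grown in male Fischer 344 rats, 6 weeks old at inoculation, first under the skin of the hind flank and then as serially passaged pieces tied to the epigastric vessels. In each of 3 tumours, an area that had not bound EF5 (the normoxic region) and an area that had (the hypoxic region) were lifted from sections by laser capture. EF5 is a nitroimidazole drug that forms adducts inside cells at low oxygen. 9L cells in culture were kept at about 20% oxygen (normoxic) or at 0.2% oxygen (hypoxic) for 6 h or 16 h. Each of the 6 groups had 3 arrays. The tumours had thus been exposed to EF5. Apart from that and the oxygen level, no group carried a genetic change or another treatment, and the cultures are of a single line. Nothing in the labels states that the 3 cultures of a group were grown as independent experiments. Culture p-values therefore cover only the scatter of these arrays, and that scatter may be technical. The 6 h and 16 h cultures carry different series of sample codes, so time and culture series cannot be told apart.

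Glycolysis splits glucose into pyruvate in the cytosol and yields ATP without oxygen. Gpi opens the segment described here by turning glucose-6-phosphate into fructose-6-phosphate. The aldolases cut fructose-1,6-bisphosphate into a pair of triose phosphates, which Tpi1 interconverts. Gapdh, Pgk1, Pgam1 and the enolases then carry the triose to phosphoenolpyruvate, and Ldha reduces pyruvate to lactate, which regenerates the NAD+ that Gapdh needs. Many genes of this pathway are textbook targets of the hypoxia-inducible factor HIF-1, which binds a short core motif in DNA.

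RefSeq promoters (rat build GRCr8) were found for 9 of the 10 members. Each window runs from 250 bases before to 50 bases after a gene start. The motifs searched were ACGTG and GCGTG on both strands (their reverse complements are CACGT and CACGC), the letters of the HIF core site, and CACGTG holds an overlapping pair of matches. At least 1 match lay in 9 of 12 member windows (75%), which belong to 8 genes. Over all 33469 windows of the same length the share was 41.6%. ACGTG alone was in 66.7% of member windows and in 19.3% of all windows. These shares are a description: a match is not a binding site, and the member windows are few.

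The 250 bases before the start are printed for the 4 members on which the results below turn, with matches in capitals. The promoters of the isoenzymes Aldoc and Eno2 are shown because they are the isoforms with the larger culture responses, Gapdh because it is a common reference gene, and Ldha because its probe sets disagree. Aldoc is chr10:63715294-63715543 on the plus strand, Gapdh chr4:159652468-159652717 on the minus strand, Eno2 chr4:159267221-159267470 on the minus strand and Ldha chr1:106507842-106508091 on the plus strand.
Aldoc: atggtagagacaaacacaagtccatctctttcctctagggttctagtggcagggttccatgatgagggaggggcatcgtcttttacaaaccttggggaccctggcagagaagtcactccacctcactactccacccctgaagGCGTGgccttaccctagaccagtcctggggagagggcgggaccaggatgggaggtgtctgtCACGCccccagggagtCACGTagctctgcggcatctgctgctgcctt
Gapdh: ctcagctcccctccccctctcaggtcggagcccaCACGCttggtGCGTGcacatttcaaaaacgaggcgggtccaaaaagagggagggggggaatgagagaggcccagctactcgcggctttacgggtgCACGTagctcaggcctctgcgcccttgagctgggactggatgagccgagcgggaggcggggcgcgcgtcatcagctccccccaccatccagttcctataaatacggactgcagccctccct
Eno2: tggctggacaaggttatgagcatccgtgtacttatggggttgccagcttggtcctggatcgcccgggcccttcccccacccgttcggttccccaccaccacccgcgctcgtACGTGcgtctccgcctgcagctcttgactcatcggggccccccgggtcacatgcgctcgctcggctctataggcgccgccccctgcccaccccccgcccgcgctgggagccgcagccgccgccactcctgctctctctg
Ldha: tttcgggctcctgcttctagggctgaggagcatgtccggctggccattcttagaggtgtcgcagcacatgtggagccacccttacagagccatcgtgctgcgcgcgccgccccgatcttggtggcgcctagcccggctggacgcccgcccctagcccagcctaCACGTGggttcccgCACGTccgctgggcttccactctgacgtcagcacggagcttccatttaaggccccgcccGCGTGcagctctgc
In the Ldha window the capitals CACGTG begin 87 bases before the start and CACGT 73 bases before it. Eno2 had a single match, 139 bases before the start, and Aldoc had 3, of which the nearest begins 31 bases before it. In Gpi the only match lay after the start, and the window of Tpi1 held none of these letters.

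Array quality and labels were checked first. Array medians were 6.36 to 6.5 (log2 signal) in tumours and 6.02 to 6.19 in cultures. The normoxic array of tumour 3 had the widest spread over probe sets among the tumour arrays (SD 1.92), and its Pearson r with the mean of normoxic cultures was 0.941, against 0.865 to 0.892 for the other tumour arrays. The mean log2 level of 7 hypoxia marker genes (Car9, Vegfa and others) was 6.92 to 7.63 in normoxic and 8.79 to 9.06 in hypoxic regions, and 7.69 to 7.96 against 9.20 to 10.04 in cultures, with no overlap in any setting. Vim, an intermediate filament of gliosarcoma cells, averaged 12.0 to 12.3 in all groups, whereas the astrocyte gene Gfap averaged 5.0 to 5.53, below every array's median. Other cells moved with the tumour comparison. The summed level (mean log2 value) of 10 macrophage markers was 7.77 to 8.31 in normoxic and 7.07 to 7.66 in hypoxic regions, and 8 of the 10 were lower in hypoxic regions. For 9 T and NK cell markers it was 6.86 to 8.25 and 6.26 to 6.58, and 8 of the 9 were lower. In cultures these lists stood at 5.48 to 5.66 and 5.14 to 5.49. For 7 glial and gliosarcoma markers it was 7.50 to 7.70 in normoxic and 7.76 to 7.91 in hypoxic regions, 5 of the 7 were higher in hypoxic regions, and cultures stood at 7.16 to 7.36. The tumour ranges of neuron, skeletal muscle, endothelial and red cell markers were 5.77 to 6.04, 6.17 to 6.30, 5.99 to 6.21 and 6.29 to 6.57. The part of these cells in the tumour values below was not tested, and in such bulk samples fewer cells of a type and less RNA per cell cannot be told apart.

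Nearly the whole segment had higher signal at low oxygen in each setting, but few members passed the test over all probe sets. In hypoxic tumour regions 9 of 10 members had a difference above 0 (64.8% of all probe sets), with a median log2 difference of 0.74 against 0.10 over all probe sets. At 6 h it was 9 of 10 (54.2% of all), with a median of 0.31 against 0.01. At 16 h it was 10 of 10 (42.8% of all), with a median of 0.66 against -0.03. An adjusted p under 0.05 (limma, Benjamini-Hochberg over 27363 probe sets) is what is meant below by a call. Of the 10 members, 0 were called in tumours, 1 at 6 h and 4 at 16 h, all higher. Over all probe sets the called share was 0%, 0.19% (0.183% higher) and 0.705% (0.603% higher). With the second Ldha probe set in place of the first, a choice made after seeing the data, these 3 counts of members called were the same, and the tumour median was 1.02.

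**Figure D1:**
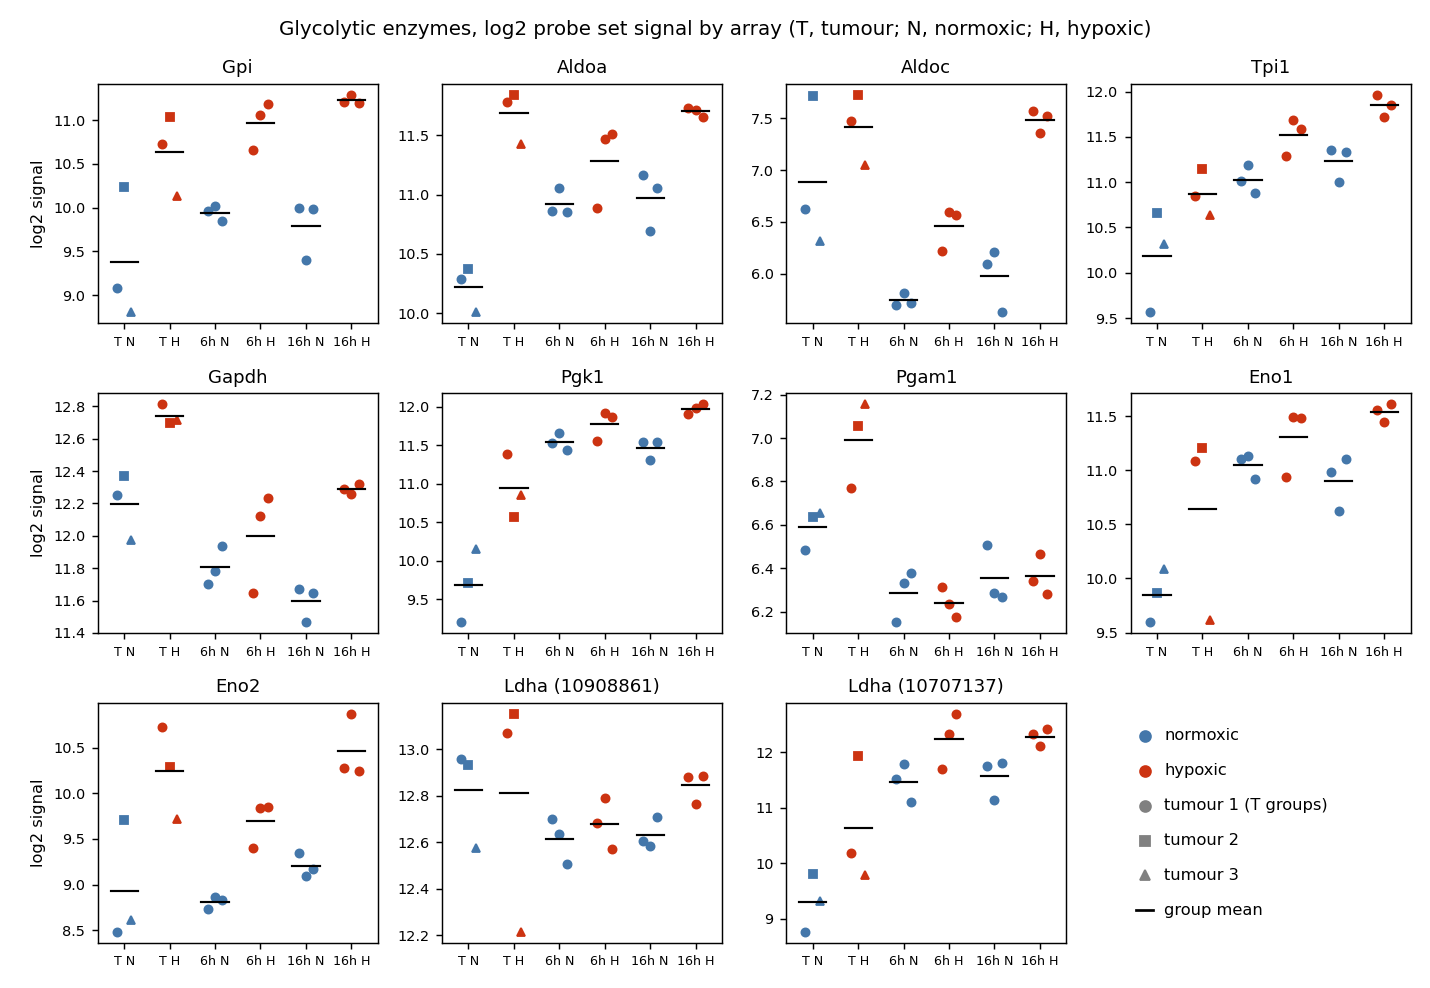
Log2 probe set signal on each of the 18 arrays for the 10 members and the second Ldha probe set. Groups run along the x axis (T, tumour; 6h and 16h, cultures; N, normoxic in blue; H, hypoxic in red), bars are group means of 3 arrays, and marker shapes give the tumour number. Signal scales differ between panels, and only the arrays within a panel can be compared. Gpi, Aldoc and Eno2 show hypoxic cultures above normoxic ones on every array.

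Gpi, the isomerase, was higher at low oxygen in every setting. Its log2 signal in tumours 1, 2 and 3 was 9.08, 10.24 and 8.81 in normoxic regions and 10.72, 11.04 and 10.13 in hypoxic regions. Each tumour was higher in its hypoxic region, although the groups overlapped because tumour 2 was high in both. At 6 h the normoxic cultures read 9.97, 10.01 and 9.85 and the hypoxic ones 10.66, 11.06 and 11.19. At 16 h they read 10.0005, 9.41 and 9.98 against 11.21, 11.29 and 11.20. Culture groups did not overlap at either time. The log2 difference was 1.26 ± 0.23 (SE) in tumours (adjusted p = 0.219), 1.03 ± 0.16 at 6 h (2.04-fold, adjusted p = 0.0167) and 1.44 ± 0.16 at 16 h (2.71-fold, adjusted p = 0.000718). Gpi was the only member called at 6 h. That call was lost in 5 of 6 fits that left out a 6 h array and held only without the hypoxic culture 6 (adjusted p = 0.00685 to 0.113).

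Aldoa, the aldolase of muscle and most tissues, had the most even tumour response. Normoxic regions read 10.29, 10.37 and 10.01 and hypoxic regions 11.78, 11.84 and 11.42 in tumours 1, 2 and 3. The groups were far apart, and the 3 tumours differed by 1.50, 1.47 and 1.42. The log2 difference was 1.46 ± 0.18 (2.75-fold). It still missed the threshold (adjusted p = 0.145), and was past it without tumour 1 (1.44, adjusted p = 0.0119). Cultures at 6 h read 10.86, 11.06 and 10.86 when normoxic and 10.88, 11.46 and 11.51 when hypoxic, where hypoxic culture 6 lay inside the normoxic range. At 16 h they read 11.17, 10.69 and 11.06 against 11.73, 11.72 and 11.65, with no overlap. The differences were 0.36 ± 0.16 (adjusted p = 0.971) and 0.73 ± 0.16 (1.66-fold, adjusted p = 0.0629). With culture number as a block, the 16 h difference passed (adjusted p = 0.0431).

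Aldoc, the brain aldolase, had the largest member response at 16 h. Its normoxic cultures read 6.09, 6.21 and 5.63 and its hypoxic cultures 7.57, 7.36 and 7.52. That is a log2 difference of 1.51 ± 0.15 (2.84-fold, adjusted p = 0.000209), with no overlap. At 6 h the cultures read 5.69, 5.81 and 5.72 against 6.22, 6.60 and 6.57, again without overlap, and the difference was 0.72 ± 0.15 (adjusted p = 0.0973). In tumours the pattern was looser. Normoxic regions read 6.62, 7.71 and 6.32 and hypoxic regions 7.48, 7.73 and 7.05. Tumour 2 hardly differed between its regions (0.02), and the groups overlapped. The tumour difference was 0.53 ± 0.23 (adjusted p = 0.571).

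Tpi1, which interconverts the triose phosphates, was higher in all 3 tumours and in both hypoxic culture groups. Normoxic regions read 9.56, 10.66 and 10.32 and hypoxic regions 10.84, 11.14 and 10.63, so that the groups overlapped. The step was largest in tumour 1 (1.28, against 0.48 and 0.31), and without it the mean was 0.39. Cultures read 11.01, 11.19 and 10.88 against 11.29, 11.69 and 11.59 at 6 h, and 11.35, 10.9998 and 11.33 against 11.97, 11.72 and 11.85 at 16 h. Hypoxic cultures lay above all normoxic cultures of the same time. The differences were 0.69 ± 0.25 in tumours (adjusted p = 0.492), 0.49 ± 0.14 at 6 h (adjusted p = 0.475) and 0.62 ± 0.14 at 16 h (adjusted p = 0.0614). With culture number as a block the 16 h value passed (adjusted p = 0.0302). Aldoa and Tpi1 bring the members called at 16 h from 4 to 6 in that fit.

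Gapdh, the NAD+-dependent dehydrogenase that is often used as a reference gene, was called higher at 16 h. Its brightest probe set (10905817) read 12.25, 12.37 and 11.98 in normoxic and 12.81, 12.70 and 12.71 in hypoxic regions, with no overlap. At 6 h the cultures read 11.70, 11.78 and 11.94 against 11.64, 12.12 and 12.23, where hypoxic culture 6 was the lowest of these 6. At 16 h they read 11.67, 11.47 and 11.64 against 12.29, 12.26 and 12.32, with no overlap. The differences were 0.54 ± 0.19 in tumours (adjusted p = 0.484), 0.19 ± 0.14 at 6 h (adjusted p = 0.984) and 0.69 ± 0.14 at 16 h (1.62-fold, adjusted p = 0.0353). The 16 h call was lost in each of 6 fits that left out a 16 h array (adjusted p = 0.0727 to 0.141) after quantile normalization (adjusted p = 0.0699) and with the spread of all 18 arrays (adjusted p = 0.0952). Its probe sets gave like answers at 16 h: the 16 differences ran from 0.50 to 0.69 with a median of 0.58, and 1 was called. They ran from 0.27 to 0.54 in tumours and from 0.10 to 0.20 at 6 h. Across arrays they were less alike (Pearson r of 0.14 to 0.997 over 120 pairs). Those signals were not centred, so level differences between tumours and cultures enter r. Whether these probe sets also read near-identical copies of Gapdh elsewhere in the genome cannot be told from the files, so the gene's values are uncertain.

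Pgk1, the first ATP-yielding kinase of the pathway, was higher in all 3 tumours and did not overlap there. Normoxic regions read 9.20, 9.71 and 10.15 and hypoxic regions 11.39, 10.57 and 10.86. The step was 2.18 in tumour 1 and 0.86 and 0.71 in tumours 2 and 3. The mean was 1.25 ± 0.32 (adjusted p = 0.341), and 0.78 without tumour 1. Cultures stood above the tumours and moved less, with 11.53, 11.66 and 11.44 against 11.56, 11.92 and 11.86 at 6 h and 11.55, 11.31 and 11.54 against 11.91, 11.99 and 12.03 at 16 h. Groups overlapped at 6 h and not at 16 h. The differences were 0.23 ± 0.12 (adjusted p = 0.984) and 0.51 ± 0.12 (adjusted p = 0.0727).

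Pgam1, the phosphoglycerate mutase, was the member whose probe set showed no culture response. Its cultures read 6.15, 6.33 and 6.38 against 6.31, 6.24 and 6.17 at 6 h, and 6.51, 6.29 and 6.27 against 6.34, 6.46 and 6.28 at 16 h, and both pairs of groups overlapped. The difference was -0.05 ± 0.10 at 6 h (95% interval -0.27 to 0.18, adjusted p = 0.987) and 0.01 ± 0.10 at 16 h (-0.22 to 0.23, adjusted p = 0.995). For the signal of this probe set, those intervals leave out changes as large as those of Gpi, Aldoc and Eno2. In tumours it read 6.48, 6.63 and 6.65 in normoxic and 6.77, 7.06 and 7.16 in hypoxic regions, with no overlap. The tumour difference was 0.40 ± 0.18 (adjusted p = 0.585). Of all probe sets, 54.4% were dimmer on average, and how well this single probe set tracks the transcript was not tested.

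Eno1, the ubiquitous enolase, split the tumours. Normoxic regions read 9.60, 9.86 and 10.08 and hypoxic regions 11.09, 11.21 and 9.62. Tumours 1 and 2 were higher by 1.49 and 1.35, and tumour 3 fell by 0.47 from its normoxic to its hypoxic region. All 3 Eno1 probe sets were lower in the hypoxic region of tumour 3 (differences of -0.47, -0.19 and -0.25). Their uncentred signals followed each other over the 18 arrays (r of 0.981 to 0.992). The mean difference was 0.79 ± 0.40 (adjusted p = 0.616), with 1.42 without tumour 3 and 0.44 without tumour 1. Cultures read 11.11, 11.13 and 10.92 against 10.94, 11.49 and 11.49 at 6 h, and 10.99, 10.62 and 11.11 against 11.56, 11.44 and 11.61 at 16 h, with overlap at 6 h and none at 16 h. The differences were 0.25 ± 0.16 (adjusted p = 0.984) and 0.63 ± 0.16 (adjusted p = 0.105).

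Eno2, the neuronal enolase, was higher in every tumour and every culture series. Normoxic regions read 8.48, 9.71 and 8.61 and hypoxic regions 10.73, 10.29 and 9.72, so that the groups lay 0.01 apart at their closest. Cultures read 8.74, 8.86 and 8.83 against 9.40, 9.84 and 9.85 at 6 h, and 9.35, 9.09 and 9.17 against 10.28, 10.87 and 10.25 at 16 h, without overlap at either time. The differences were 1.31 ± 0.33 in tumours (adjusted p = 0.340), 0.89 ± 0.16 at 6 h (1.85-fold, adjusted p = 0.0542) and 1.26 ± 0.16 at 16 h (2.40-fold, adjusted p = 0.00182). The tumour value was 0.84 without tumour 1. Without hypoxic culture 6 the 6 h value was 1.03 and passed (adjusted p = 0.0264). Neuron markers as a list were at 5.38 to 5.60 in all cultures.

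Ldha, which makes lactate, gave different answers on its 2 probe sets. The brighter (10908861) outshone 99.97% of all probe sets. It read 12.96, 12.93 and 12.58 in normoxic and 13.07, 13.15 and 12.21 in hypoxic regions, near the highest signal of the tumour arrays (13.5 to 13.8). Tumours 1 and 2 were slightly higher and tumour 3 was lower. Its cultures read 12.70, 12.64 and 12.51 against 12.68, 12.79 and 12.57 at 6 h, and 12.60, 12.58 and 12.71 against 12.88, 12.76 and 12.89 at 16 h, and only the 16 h groups did not overlap. The differences were -0.01 ± 0.20 in tumours (95% interval -0.51 to 0.49, adjusted p = 0.986, and 0.00849 after quantile normalization), 0.07 ± 0.10 at 6 h (adjusted p = 0.987) and 0.21 ± 0.10 at 16 h (adjusted p = 0.601).

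The second Ldha probe set (10707137) read 8.76, 9.81 and 9.32 in normoxic and 10.18, 11.92 and 9.80 in hypoxic regions. Every tumour was higher in its hypoxic region, though tumour 3 ended below the normoxic value of tumour 2. Its cultures read 11.51, 11.79 and 11.11 against 11.71, 12.32 and 12.69 at 6 h, and 11.75, 11.15 and 11.81 against 12.32, 12.10 and 12.41 at 16 h. They overlapped at 6 h and not at 16 h. The differences were 1.33 ± 0.32 (2.52-fold, adjusted p = 0.321), 0.77 ± 0.24 (adjusted p = 0.667) and 0.71 ± 0.24 (adjusted p = 0.337). Over the 18 arrays the uncentred signals of the 2 probe sets had a Pearson r of 0.05. Level differences between tumours and cultures enter that value. Normoxic regions differed from normoxic cultures by -2.22 on the second probe set and 0.20 on the brighter. Which of them stands for Ldha changes its tumour difference from -0.01 to 1.33. Why they differ was not tested.

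**Figure D2:**
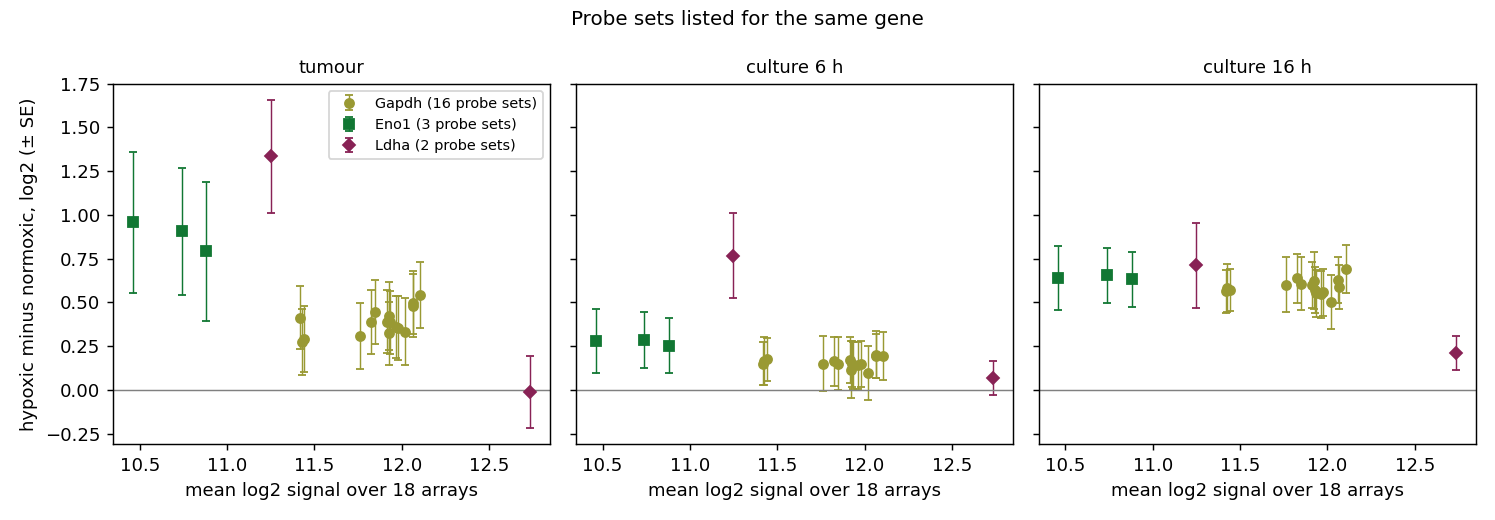
Hypoxic minus normoxic log2 difference (± SE from limma) of each probe set of Gapdh, Eno1 and Ldha against its mean log2 signal over 18 arrays, in tumours and in 6 h and 16 h cultures. The 16 Gapdh and 3 Eno1 probe sets lie close together in each panel, while the 2 of Ldha lie apart, most in tumours (-0.01 and 1.33).

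Read across members, no member was called in tumours in the fit of the 6 tumour arrays, where limma called 0 of 27363 probe sets. At an unadjusted p under 0.05, 6 of 10 members passed, all higher, against 2496 probe sets (9.12%, and 3.42% higher). The members were higher in all 3 tumours for 8 of 10 genes, against 22.9% of probe sets, and non-overlapping and higher for 5 of 10, against 11.8%. When the spread was instead taken from all 18 arrays with pairs as blocks, 5 members were called, with adjusted p = 0.000989 for Aldoa, 0.00732 for Gpi, 0.0175 for Pgk1, 0.0242 for Eno2 and 0.0385 for Gapdh, among 1408 probe sets. The culture arrays enter the spread of that fit, so these p-values do not rest on the scatter of the tumours alone. Without tumour 1, 1 member (Aldoa) and 563 probe sets were called. Over the 10 members the median difference was 1.39 in tumour 1, 0.53 in tumour 2 and 0.72 in tumour 3. Without tumours 1 and 3 in turn the median was 0.50 and 1.05, and 0 members were called without tumour 2 or tumour 3.

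In 6 h cultures the member medians were 0.09, 0.39 and 0.61 for culture numbers 6, 13 and 26. Hypoxic culture 6 was the lowest of its group for 8 members, Gpi, Aldoa, Aldoc, Tpi1, Gapdh, Pgk1, Eno1 and Eno2. Its level on the hypoxia marker list was 9.20, above every normoxic culture but the lowest of all hypoxic cultures (9.43 and 9.53 in cultures 13 and 26). The part of this in the member values was not tested. Groups were non-overlapping and higher for 4 of 10 members (5.6% of probe sets). Without that array the median was 0.50 and 2 members were called.

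At 16 h the medians were 0.59, 0.81 and 0.56 for culture numbers 22, 28 and 29. Groups were non-overlapping and higher for 9 of 10 members, all but Pgam1, against 6.6% of probe sets. Leaving out any 16 h array kept 3 calls, and Gpi, Aldoc and Eno2 passed in each of those 6 fits. With the spread of all 18 arrays in 6 groups, only Aldoc was called, and Gpi (adjusted p = 0.0952) and Eno2 (adjusted p = 0.151) were not. The tumour arrays enter the spread of that fit.

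**Figure D3:**
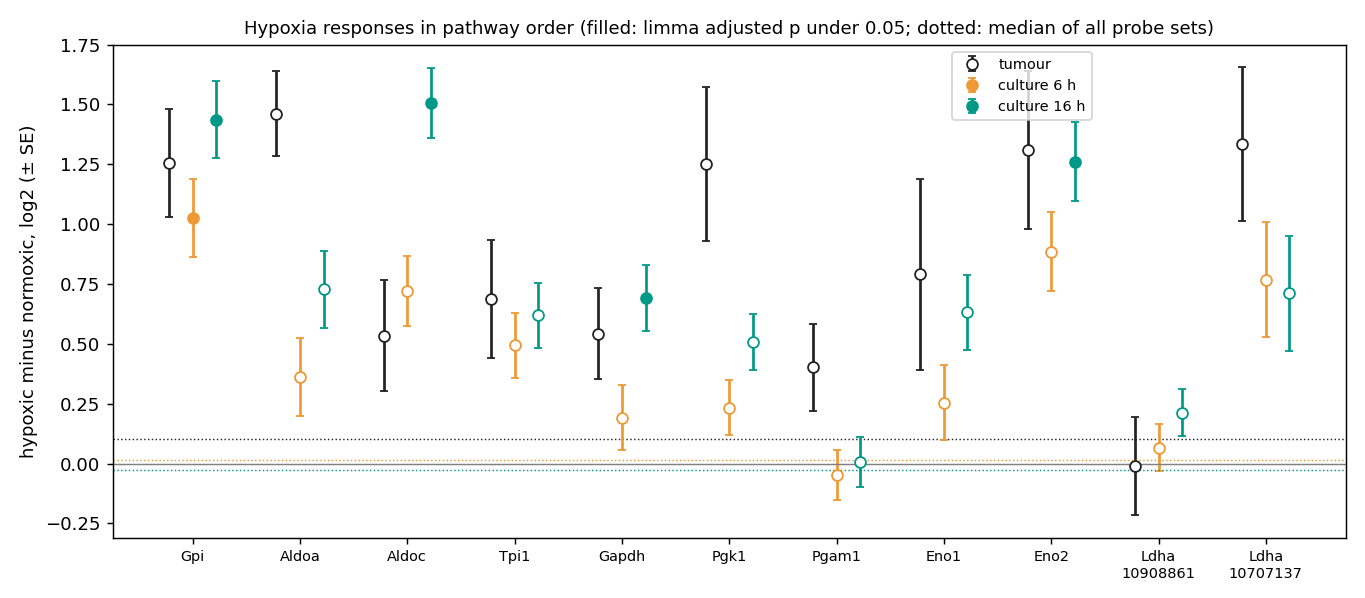
Hypoxic minus normoxic log2 difference (± SE) of each member in pathway order, for tumours (black), 6 h cultures (orange) and 16 h cultures (green), with filled points for an adjusted p under 0.05 and dotted lines for the median of all probe sets. Filled points are Gpi at 6 h and Gpi, Aldoc, Gapdh and Eno2 at 16 h, and Pgam1 is near 0 in both cultures.

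**Figure D4:**
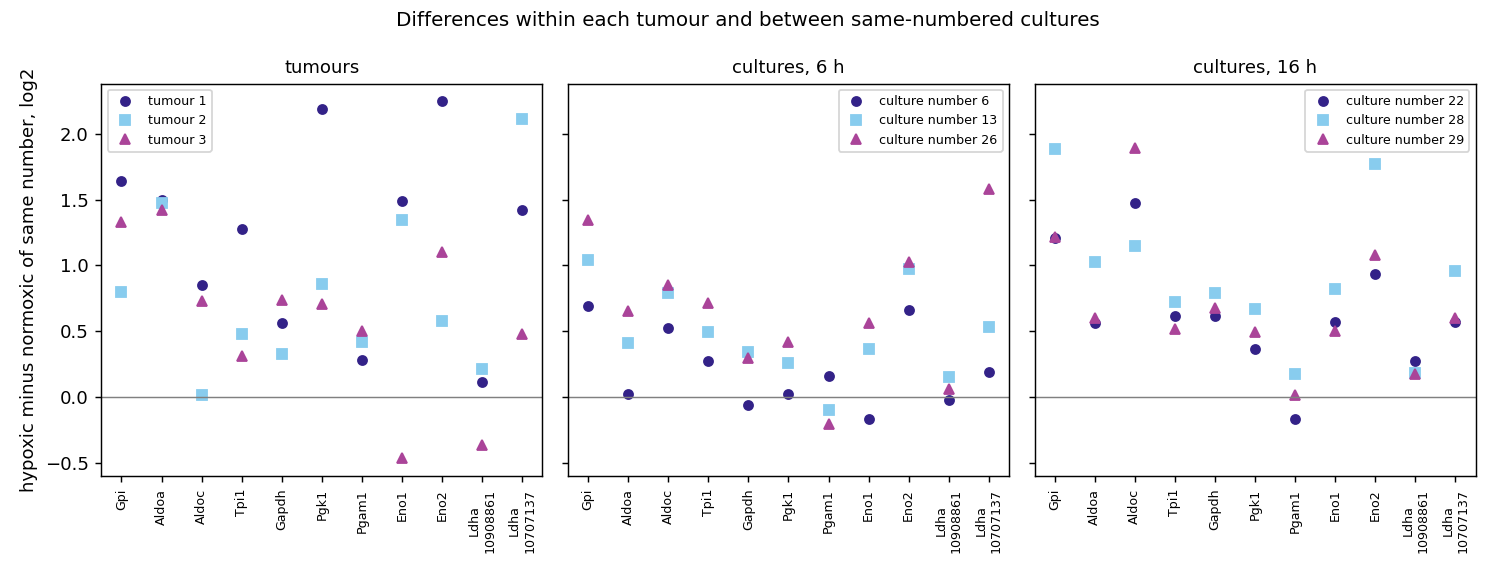
Hypoxic minus normoxic log2 difference within each tumour and between same-numbered cultures, one point a pair, by member in pathway order. Tumour 3 is below 0 for Eno1 and the brighter Ldha probe set, and culture 6 is the lowest of the 6 h pairs for most members.

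The response at 16 h minus that at 6 h was above 0 for all 10 members (42.7% of all probe sets), with a median of 0.37 against -0.03. Limma called 0 members and 0 of 27363 probe sets, with 2 members and 1194 probe sets (4.36%) at an unadjusted p under 0.05. Those 2 were Aldoc (0.78 ± 0.21, adjusted p = 0.982) and Gapdh (0.50 ± 0.19, adjusted p = 0.982). Without hypoxic culture 6 of the 6 h group the median was 0.18. Hypoxic cultures at 16 h had higher means than those at 6 h for all 10 members (48.6% of all probe sets), and 2 were called (2.93% of probe sets, and 1.33% higher), Aldoc by 1.02 ± 0.15 (adjusted p = 0.00298) and Eno2 by 0.77 ± 0.16 (adjusted p = 0.0247). The Eno2 call held in 3 of 6 fits without a hypoxic culture, and with the spread of all 18 arrays neither Aldoc (adjusted p = 0.153) nor Eno2 (adjusted p = 0.391) was called. Among normoxic cultures 0 members were called (4.86% of probe sets, 1330), and differences ran from -0.21 to 0.39. Of the calls among probe sets in normoxic cultures, 49.6% were higher at 16 h (58.3% after quantile normalization, 26.6% after median centring). In hypoxic cultures that share was 45.6% (62.3% and 46.2%).

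Tumour and culture responses were compared directly as the tumour difference minus the mean of both culture differences. The median member value was 0.18 against 0.10 over all probe sets, and -0.08 without tumour 1. Only Aldoa was called (0.92 ± 0.18, adjusted p = 0.0438, 1.17% of probe sets and 0.179% higher): it stepped by 1.46 in tumours and by 0.36 and 0.73 in cultures. Tumour and culture arrays share a spread estimate in that fit. The call was lost after quantile normalization (0.68, adjusted p = 0.106), after median centring (0.87, adjusted p = 0.0542), without the pair blocks (adjusted p = 0.0590) and in 6 of 9 fits without a tumour or culture pair. Pgk1 (0.88 ± 0.29, adjusted p = 0.182), Pgam1 (0.42 ± 0.15, adjusted p = 0.205) and Aldoc (-0.58 ± 0.23, adjusted p = 0.242) were not called. Pgk1 was at 0.41 without tumour 1, and Aldoc at -0.32 without tumour 2. Of the calls among probe sets 15.4% were higher, 30.6% after quantile normalization and 9.29% after median centring.

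Levels in tumours and in cultures were then set side by side, gene by gene. The array scales differ between both systems. The median of all probe sets was 0.24 higher in normoxic regions than in normoxic cultures (0.06 after quantile normalization, -0.07 after median centring). It was 0.37 higher in hypoxic regions than in hypoxic cultures (0.11 and 0.01). The spread over probe sets was narrower on tumour arrays (SD 1.76 to 1.92) than on culture arrays (2.04 to 2.17). Subtracting a median leaves that difference in place, and its part in the member levels was not tested. Of normoxic probe sets 64.3% were called and of hypoxic ones 76%, and the 7 and 5 members called of 10 are near or below those shares. Of the calls among probe sets, 67.8% were higher in normoxic regions than in normoxic cultures (57.5% and 34.0% under the other scalings). For hypoxic regions that share was 70.4% (61.1% and 45.8%).

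With each gene read from its brightest probe set, Pgk1 was the member most below culture, by 1.82 in normoxic and 0.94 in hypoxic regions on the log2 scale, or by 2.06 and 1.31 relative to the median of all probe sets. Tpi1 and Eno1 were also lower in both region types, Tpi1 at -0.94 and -0.81 and Eno1 at -1.13 and -0.78 (to -1.57 and -1.07 on its other probe sets). Eno1 in hypoxic regions was not called without tumour 3 (-0.27, adjusted p = 0.154) or against 6 h cultures alone (-0.67, adjusted p = 0.0595). After quantile normalization neither Tpi1 nor Eno1 was called in either region type (adjusted p = 0.127 to 0.440). The second Ldha probe set, at -2.22 and -1.63, was further below culture than Pgk1. Aldoa was lower in normoxic regions (-0.73, adjusted p = 0.000779), and not after quantile normalization (-0.13, adjusted p = 0.608). Aldoc was higher in normoxic regions by 1.03 ± 0.24 (0.78 relative to the median of all probe sets), with adjusted p = 0.00170, and by 0.61 without the normoxic array of tumour 2. Gapdh was higher by 0.50 and 0.60 and Pgam1 by 0.27 and 0.69, but relative to the median of all probe sets by 0.25 and 0.23 and by 0.03 and 0.32. Neither normoxic value was called after median centring, where Pgam1 stood at -0.043, and the Pgam1 call was also lost in 5 of 9 fits without an array. The hypoxic Gapdh value was not called after median centring either (0.24, adjusted p = 0.0816). Of the 16 Gapdh probe sets 3 were called in each comparison, and their values ran from -0.42 to 0.50 and from -0.49 to 0.60, so the direction for Gapdh rests on the probe set. In all, 7 members were called in normoxic regions, 3 higher (43.6% of probe sets) and 4 lower (20.7%). In hypoxic regions 5 were called, 2 higher (53.5%) and 3 lower (22.5%).

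Ordered by group mean, 16 h hypoxic cultures were highest for Gpi, Aldoa, Aldoc, Tpi1, Pgk1, Eno1, Eno2 and both Ldha probe sets, and hypoxic tumour regions for Pgam1 and for the brightest Gapdh probe set. Hypoxic regions were highest on only 3 of the 16 Gapdh probe sets, and 16 h hypoxic cultures on the others. For Aldoa the means of hypoxic regions (11.68 ± 0.23, SD, n = 3) and 16 h hypoxic cultures (11.70 ± 0.04) were closer than their spread. The same held for Aldoc (7.42 ± 0.35 and 7.48 ± 0.11) and Eno2 (10.24 ± 0.51 and 10.47 ± 0.35). Normoxic regions were lowest for Gpi, Aldoa, Tpi1, Pgk1, Eno1 and the second Ldha probe set. The SD of Gpi was 0.76 in normoxic regions, against 0.09 and 0.34 in 6 h and 16 h normoxic cultures. That order did not hold for every member: the SD of Pgam1 was 0.09 in normoxic regions and 0.12 and 0.13 in those cultures.

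The brain isoforms were compared with their ubiquitous partners by subtracting responses within the same arrays. Eno2 exceeded Eno1 by 0.52 in tumours, 0.63 at 6 h and 0.63 at 16 h, with a mean of 0.59 (exact permutation test, 3200 permutations, two-sided, p = 0.0156, adjusted p = 0.0313 over 2 tests). With culture number as a block the adjusted p was 0.0547, and 4 of 15 tests that left out an array or tumour did not pass. In tumour 2 the order was opposite (-0.77), as Eno1 stepped further there. Aldoc minus Aldoa averaged 0.07 (exact permutation test, p = 0.793, adjusted p = 0.793): it was -0.93 in tumours and 0.36 and 0.78 in 6 h and 16 h cultures.

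Among other steps of glycolysis, Pdk1, Slc2a1, Hk2 and Pfkl were called higher at both culture times. Of 14 measured genes of other glycolysis and lactate steps, 0 were called in tumours, 4 higher at 6 h and 7 higher at 16 h, with 0 lower. Without tumour 1 there were 4 tumour calls, and without hypoxic culture 6 there were 7 calls at 6 h. With the spread of all 18 arrays the calls were 6 in tumours, 1 at 6 h and 2 at 16 h. Over all probe sets 0%, 0.19% and 0.705% were called. Medians were 0.72, 0.43 and 0.73, close to those of the 10 members in tumours and at 16 h. At 6 h Pdk1, the kinase that closes pyruvate dehydrogenase, rose by 1.76 ± 0.16 (adjusted p = 0.000106), the glucose transporter Slc2a1 by 1.42 ± 0.17 (adjusted p = 0.00171) and hexokinase 2 (Hk2) by 1.17 ± 0.11 (adjusted p = 0.000167). At 16 h the transporter Slc2a3 rose by 2.21 ± 0.23 (adjusted p = 0.000331), Pdk1 by 1.70 ± 0.16 (adjusted p = 0.000103) and Slc2a1 by 1.53 ± 0.17 (adjusted p = 0.000707). In tumours the smallest p-values were those of Pfkfb3 (1.29 ± 0.19, adjusted p = 0.177), Pfkl (1.46 ± 0.22, adjusted p = 0.180) and the lactate exporter Slc16a3 (1.26 ± 0.21, adjusted p = 0.208). Against cultures, normoxic regions had 2 of the 14 higher and 5 lower, led by Bpgm (-1.36), Pdk1 (-1.19) and Pgm1 (-1.16). Over all probe sets 64.3% were called in that comparison (43.6% higher and 20.7% lower), and after quantile normalization 4 of the 14 genes were.

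Tissue-restricted or alternative isoenzymes were not called between oxygen levels, and the part of low signal in this was not tested. Of 10 measured tissue-restricted or alternative isoenzymes, such as the muscle enolase Eno3 and the testis form Ldhc, limma called 0 in tumours, at 6 h and at 16 h, with 1, 0 and 0 at an unadjusted p under 0.05 and medians of -0.04, -0.02 and 0.03. The smallest tumour p-values belonged to Ldhal6b (0.51 ± 0.20, adjusted p = 0.525), Eno3 (-0.80 ± 0.38, adjusted p = 0.601) and Ldhc (-0.53 ± 0.26, adjusted p = 0.610). Against cultures, normoxic regions had 7 higher, led by Pgam2 (1.15) and the leukocyte hexokinase Hk3 (1.14), and 1 lower, Eno3 (-0.96), where 64.3% of all probe sets were called (43.6% higher). After quantile normalization or median centring 4 of the 10 were called, and 5 without the normoxic array of tumour 2.

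Branch and shunt enzymes were also not called between oxygen levels in the main fits. Of 9 measured, limma called 0 in tumours, at 6 h and at 16 h (0, 0 and 3 at an unadjusted p under 0.05), and 1 at 16 h after median centring or without hypoxic culture 29, with medians of 0.01, -0.11 and -0.04. Fbp2 (0.24 ± 0.19, adjusted p = 0.695), Psat1 (-0.39 ± 0.36, adjusted p = 0.725) and Gpd1 (0.20 ± 0.19, adjusted p = 0.735) had the smallest tumour p-values. Against cultures 4 were higher and 4 lower in normoxic regions, led by Taldo1 (-1.82), Tkt (-1.02) and Gpd2 (-0.93), where 64.3% of all probe sets were called. After quantile normalization 4 of the 9 were called, and 5 after median centring.

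Among 11 measured reference genes (Actb, Hprt1, Ppia and others) limma called 0 in tumours, at 6 h and at 16 h, with 1, 0 and 2 at an unadjusted p under 0.05. Their tumour median was -0.24, with 10 of 11 lower in hypoxic regions, and 0.00 at 16 h, where differences ran from -0.40 to 0.12. The 16 Gapdh probe sets, at 0.50 to 0.69, all lay above that range at 16 h. At 6 h their values (0.10 to 0.20) overlapped those of the reference genes (-0.20 to 0.12). In tumours all 16 Gapdh probe sets (0.27 to 0.54) lay within the reference range (-0.85 to 0.61), but its upper end is Tfrc alone. The other 10 reference genes were lower in hypoxic regions, and so below every Gapdh probe set. In tumours the smallest p-values were those of Hprt1 (-0.85 ± 0.25, adjusted p = 0.416), Tfrc (0.61 ± 0.27, adjusted p = 0.584) and Sdha (-0.46 ± 0.23, adjusted p = 0.615). Against cultures, 6 of the 11 were called lower in normoxic regions, led by Tfrc (-3.96), Hprt1 (-2.65) and Sdha (-1.39), and 1 was called higher. Over all probe sets 64.3% were called, 20.7% lower and 43.6% higher. In the deposited scaling the reference genes were thus called lower more often, and higher less often, than probe sets at large. That background depends on the scaling: of the calls over all probe sets, 67.8% were higher as deposited and 34.0% after median centring.

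The members shared a profile over the 18 arrays to different degrees. Each member's log2 signal was first centred within tumours, 6 h cultures and 16 h cultures, which removes level differences between these settings. It was then correlated with the mean profile of the other members, as a description over arrays that share their 6 groups. Genes outside the list were centred in the same way. Pearson's r was 0.96 for Gpi, 0.95 for Eno2 and 0.90 for Aldoa and Tpi1, and 0.37 for Pgam1. For Ldha it was 0.40 on the brighter and 0.84 on the second probe set. The genes outside the list closest to the mean profile of all members, of 14314 ranked, were Pkm (r = 0.97, Spearman's rho 0.94), Kdm3a (0.95 and 0.93), Pfkl (0.95 and 0.91), Plod2 (0.94 and 0.95) and Car9 (0.93 and 0.89). Pkm, the pyruvate kinase of the step between enolase and lactate dehydrogenase, differed by 0.58 ± 0.22 in tumours, 0.31 ± 0.11 at 6 h (adjusted p = 0.846) and 0.51 ± 0.11 at 16 h (adjusted p = 0.0663). The histone demethylase Kdm3a differed by 1.62 ± 0.28 in tumours, 1.00 ± 0.13 at 6 h (adjusted p = 0.00290) and 1.24 ± 0.13 at 16 h (adjusted p = 0.000331).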

How the data were processed

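Total RNA (2 ng a sample) was amplified with a NuGEN Ovation WT-Pico kit and, per the labels' protocols, hybridised to Rat Gene 1.0 ST arrays from Affymetrix. The submitters' processing notes name RMA in Partek 6.5b for the deposited log2 values, and do not say whether the 18 arrays were normalized jointly. No array was identical to another.

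Gene names came from the platform annotation, which lists 15420 of 27363 probe sets (15097 with 1 symbol, 323 with several). A gene with several probe sets (499 genes) was represented by the brightest on average, and all member probe sets were also fitted. Two-sided tests used limma 3.58.1 in R 4.3.3 (lmFit, eBayes). P-values were adjusted over all 27363 probe sets (Benjamini-Hochberg), and calls were made under 0.05. Tumours were fitted with the tumour as a block (6 arrays), cultures in 4 groups (12 arrays), the tumour against the culture response with 9 pairs as blocks, and levels in 6 groups (18 arrays). Isoenzymes were compared by an exact permutation test within tumours and culture times. Fits were run on simulated data with known differences and independent noise. That noise had no tumour or pair effects, so an unequal spread of tumours and cultures was not tested. The number of arrays limits the precision.

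As a check of pairing, each array's deviation from its group mean was correlated with that of the array of the other oxygen level and equal number. Correlations of 0.125, 0.192 and 0.193 (6 h) and 0.130, 0.188 and 0.307 (16 h) were found. From these data alone, culture numbers were taken as pairs for the tumour against the culture response and for alternative fits. The main culture fits had no such block. Culture 6 correlated better with another number (0.177) than with its own (0.125), so the evidence is thin at 6 h. Regions of a tumour are paired by origin (0.128, 0.0357 and 0.273, with 0.167 between tumour 2 and another tumour).

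The members and lists were chosen with earlier results of these data known. All members are named. From the lists of other glycolysis steps, tissue-restricted isoenzymes, branch enzymes and reference genes, the 3 largest called differences at 6 h, 16 h and between normoxic regions and cultures are named, and the 3 smallest p-values in tumours. The 5 genes whose values correlate best with the members are named too. Lists of hypoxia, glial, neuron, muscle, macrophage, T and NK cell, endothelial and red cell markers were read as mean log2 levels. Alternatives were other scalings, filters, variance models, spreads, reference cultures, blocks and left-out arrays.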

Additional observations from a re-analysis of the deposited data

Results flagged for a closer look

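Aldoa stepped further in tumours than in the mean of both culture times, by 0.92 log2 units (limma interaction contrast, adjusted p = 0.0438). That call was lost after quantile normalization, after median centring and without the pair blocks. It was also lost in 6 of 9 fits without a tumour or culture pair. Tumour and culture arrays share a spread estimate in the fit of that contrast. All 3 tumours were higher in their hypoxic region by 1.42 to 1.50, and the 6 culture pairs by 0.02 to 1.02.

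The isoenzyme difference Aldoc minus Aldoa was below 0 in all 3 tumours (-0.64, -1.46 and -0.69, mean -0.93) and above 0 in all 6 culture pairs (0.20 to 0.50 at 6 h and 0.12 to 1.30 at 16 h). This difference between tumours and cultures was not tested. The pattern was found in values that also give the Aldoa result and is no separate evidence.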

How the results depend on the processing

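For single members, 619 alternative values kept the direction and the side of the threshold, 46 fell short of it, 16 newly passed and 6 changed sign, which were of the brighter Ldha probe set and Pgam1. In tumours the number of probe sets called was 1 without the dimmest 25% of probe sets, 22 with trended and robust variance and 1408 with the spread of all 18 arrays, where 5 members were called. The culture arrays enter that spread. The brighter Ldha probe set turned to 0.00849 after quantile normalization. At 6 h the members called were 2 without the dimmest 25% of probe sets, 2 with trended and robust variance and 0 with the spread of all 18 arrays, which called 6 probe sets. At 16 h they were 7 with trended and robust variance and 1 (33 probe sets) with the spread of all 18 arrays. Between culture times, normoxic cultures gave 780 probe sets after quantile normalization and 137 with the spread of all 18 arrays, and hypoxic cultures 94 with 0 members. For the tumour against the culture response, 0 members were called after quantile normalization (638 probe sets), median centring or without the replicate block. Against normoxic cultures 3 members and 10489 probe sets, and against hypoxic cultures 13646 probe sets, were called after quantile normalization. Pgam1 in normoxic regions turned to -0.0435 after median centring. The replicate block by culture number called 60 probe sets at 6 h and 268 at 16 h. It changed the calls of Aldoa and Tpi1 at 16 h and of Eno2 minus Eno1 (0.59, adjusted p = 0.0547), and no other member call. The cause of these changes was not tested.

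Leaving out 1 tumour or array gave 0 to 1 members and 0 to 563 probe sets in tumours, 0 to 2 and 27 to 50 at 6 h, and 3 members and 74 to 171 probe sets at 16 h. It gave 363 to 907 probe sets for normoxic cultures between times, 1 to 2 members and 295 to 894 probe sets for hypoxic cultures, and 0 to 2 members and 44 to 1365 probe sets for the tumour against the culture response. Values ran from -0.13 to 0.16 for the brighter Ldha probe set in tumours, from -0.0428 to 0.0848 for Pgam1 at 16 h, from -0.0027 to 0.16 for Aldoc minus Aldoa and from 0.42 to 0.81 for Eno2 minus Eno1.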
